A study of Mus musculus with 9 samples.

Results

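The genes described here encode the subunits of the receptors for glutamate and GABA in mouse striatum. They are the genes whose symbol names an AMPA, kainate, NMDA, delta or metabotropic glutamate receptor or a GABA-A or GABA-B receptor subunit, and 41 of the 19935 genes with a probe set of their own on the array were found by that rule: 23 of glutamate receptors and 18 of GABA receptors. Where a gene had several probe sets, the one with the highest mean over the arrays stood for it. Tissue was taken from 3 groups of mice, each measured on 3 arrays. The acute group had been given MPTP 4 times at intervals of 2 h, at 20 mg/kg by intraperitoneal injection, and was sampled after 1 week. The chronic group had been given MPTP once a day on 20 days in a row, at 4 mg/kg, and was sampled after 8 weeks; the total was 80 mg/kg in each. Controls had been given saline on the acute schedule and were sampled after 1 week, so that regimen and time since injection cannot be told apart in comparisons of the chronic group. The labels give no strain, sex or age, and they do not say that each array came from its own animal; the p-values therefore reflect only how these samples vary, which may be technical variation.

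MPTP is a toxin whose metabolite is taken up by dopamine neurons, cells whose axons run from the midbrain to the striatum. Most striatal neurons are GABA-releasing projection neurons that are driven by glutamate from cortex and thalamus. AMPA, kainate and NMDA receptors are ion channels built of 4 subunits around a cation pore, whereas metabotropic glutamate receptors and GABA-B receptors act through G proteins. GABA-A receptors are chloride channels of 5 subunits, and the mix of subunits sets where in the cell they lie and how they respond.

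All values are log2 intensities as deposited, a scale that sets arrays but not genes beside one another. Each array had a median between 6.85 and 6.90. Striatal markers were present on every array: Ppp1r1b, the phosphatase inhibitor DARPP-32, lay between 11.44 and 12.31. Markers of neighbouring tissue differed widely between arrays. Over 14 tested genes of cortical glutamatergic neurons, the mean deviation of an array from the gene means was 1.04 on control 1, 0.71 on acute 1 and 0.97 on acute 2, and between -0.72 and -0.33 on the other 6. Over 13 genes of thalamus, septum and hypothalamus it was 1.31 on control 3 and 0.71 on acute 3, and between -0.65 and 0.10 elsewhere. Over 10 choroid plexus genes it was 0.84 and 1.49 on those same 2 arrays and at most 0.05 elsewhere. In groups, the cortical list ran from -0.42 to 1.04 in controls, -0.54 to 0.97 after acute and -0.72 to -0.35 after chronic MPTP, and the thalamic list from -0.33 to 1.31, -0.65 to 0.71 and -0.58 to 0.10. Over 19 genes of striatal projection neurons the deviation was -0.45, 0.14 and -0.58 on control 1, control 2 and control 3. It ran from -0.02 to 0.09 after acute and from 0.20 to 0.35 after chronic MPTP, so all chronic arrays were above all controls. The covariate fits below do not hold this list. In tissue samples such as these, fewer cells of a type and less RNA per cell cannot be told apart.

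Of the 41 genes, 38 reached the level required for testing. The other 3 were GABA-A subunits that stayed near the bottom of the scale on all arrays: Gabra6, known from cerebellar granule cells, between 5.16 and 5.28, Gabrp, the pi subunit, between 5.43 and 5.53, and Gabrr3, a rho subunit, between 5.28 and 5.70. The 38 tested genes were 4 of AMPA, 5 of kainate, 6 of NMDA, 1 of delta and 7 of metabotropic glutamate receptors, and 13 of GABA-A and 2 of GABA-B receptors. Across the 9 arrays the range of a subunit gene had a median of 0.66, from 0.22 for Gria1 to 2.84 for Gabrq, against a median of 0.50 over all tested probe sets. A range of 1 or more was found in 9 of the 38 genes (23.7%) and in 8.20% of all tested probe sets. Control 3 and chronic 3 each held the highest value of 10 of the 38 genes, control 1 that of 7 and acute 3 that of 0.

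**Figure D1:**
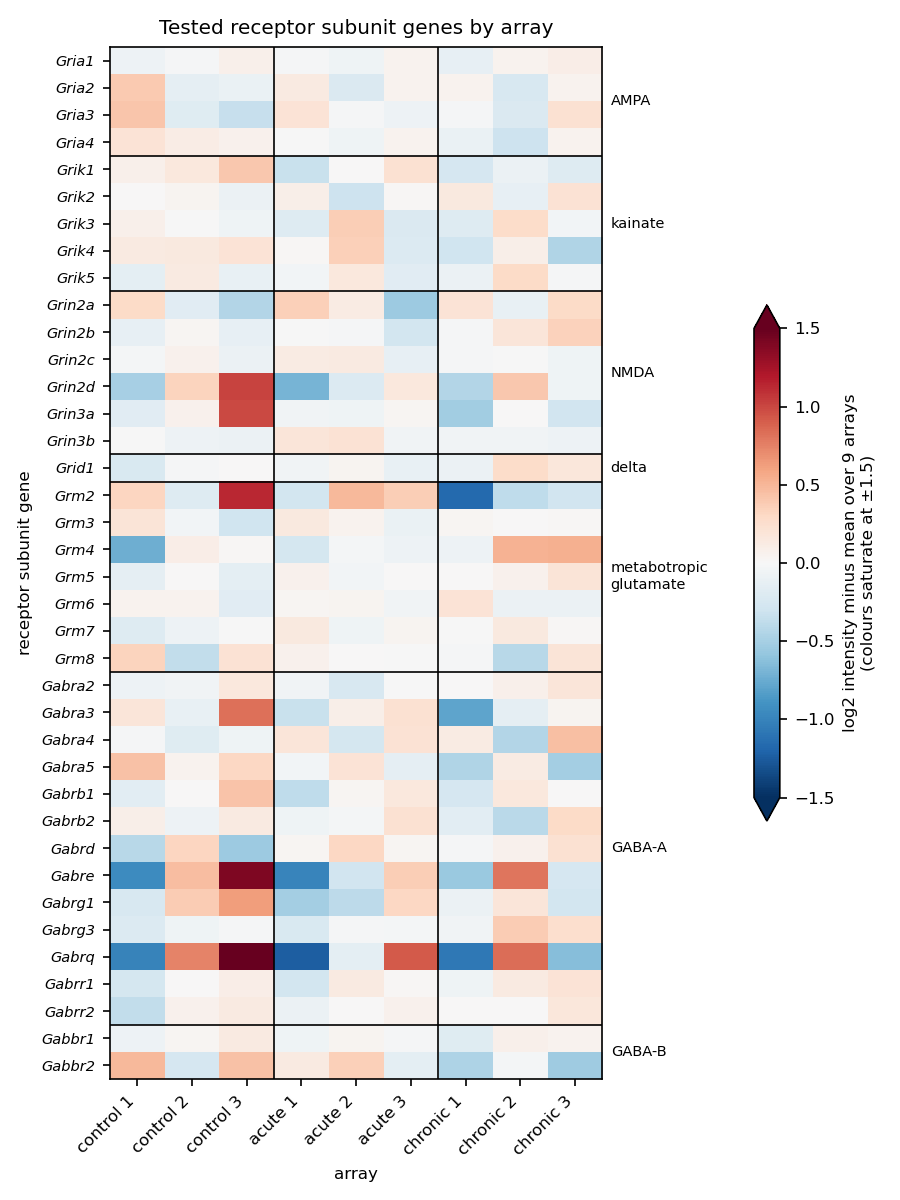
Each row is 1 of the 38 tested receptor subunit genes, grouped by receptor class, and each column 1 array; colour gives the log2 intensity minus the gene's mean over the 9 arrays, with red above and blue below that mean. The strongest colours lie in Gabrq, Gabre, Grm2, Grin2d and Grin3a, all highest on control 3, while Gria1 hardly varies.

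At 1 week after acute MPTP, none of the 38 subunit genes passed the test against control. In limma, 0 passed at an adjusted p under 0.05, with every adjusted p at 1, and 0 had an unadjusted p under 0.05, against 0% and 0.851% of all tested probe sets. The largest differences by p were higher values of Grin3b, Gabrd and Grm7 and lower values of Gabrg1, Grik1 and Grin2d. With 16 genes above and 22 below control (42.1% above, against 51.5% of all probe sets), the median difference was -0.02, against 0.00 over all. Groups that did not overlap were found for 1 gene, Gria4 (2.63%), against 3.56% of all (1.49% for lower values). Arrays with the same number in their titles deviated together, and with that number as a block 2 genes had an unadjusted p under 0.05, Grin2d and Grik1, against 4.21% of all probe sets, and 0 passed after adjustment. With the means of 2 regional marker lists as covariates the count at an unadjusted p under 0.05 was 0, against 1.25% of all. Without control 1 or without acute 3 it was 3, and without control 2 it was 1. For these fits without an array, the share of all probe sets was not counted.

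At 8 weeks after chronic MPTP, Grm2, Gabra5, Gabbr2, Grik1, Grik4 and Gria4 lay below the 1-week controls and Gabrg3 and Grm4 above them, each at an unadjusted p under 0.05, and none passed after adjustment over all probe sets. Grm2, a presynaptic receptor that restrains glutamate release, had the largest difference, -1.03 ± 0.36 on the log2 scale (2.05-fold lower, adjusted p = 0.876). These 8 genes are 21.1% of the 38, against 5.51% of all tested probe sets; the 6 lower are 15.8% against 2.66%, and the 2 higher 5.26% against 2.85%. In limma 0 passed at an adjusted p under 0.05, as did 0% of all probe sets, and the smallest adjusted p among the subunit genes was 0.876. Of the 38 genes, 20 were above and 18 below control (52.6% above, against 46.7% of all), with a median of 0.01 against -0.01 over all tested probe sets; 14 of 23 glutamate receptor genes were above and 9 of 15 GABA receptor genes below. The groups did not overlap for 5 genes (13.2%, against 6.55% of all), Grm2, Grik1, Gria4 and Grik4 below control (3.67% of all) and Grm5 above it (2.88%). Gabbr2, Gria4 and Grik4 are named because of their values.

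The count of 8 changed when single arrays were left out and when tissue markers entered the fit. It was 4 without control 1, 2 without control 3, and 4 without chronic 1 or chronic 3. It was 5 without acute 1, acute 2 or acute 3, which enter only through the estimate of the spread. The share of all probe sets was not counted for these or other fits that leave out arrays. With the replicate number as a block it was 11 (28.9%, against 13% of all probe sets), Gabra3, Grin3a and Grid1 being added, and 0 passed after adjustment. In the same comparison 11 of 14 cortical and 11 of 13 thalamic, septal and hypothalamic markers were below control, with medians of -0.53 and -0.41, and 19 of 19 markers of striatal projection neurons were above it, with a median of 0.52. None of these markers passed after adjustment. With the means of the cortical and the thalamic list as covariates, 0 of the 38 genes had an unadjusted p under 0.05, against 1.4% of all probe sets. Grm2 then went to -0.24, Gabra5 to -0.21, Gabbr2 to -0.02 and Grik4 to -0.21, while Grik1 was -0.29, Gria4 -0.28, Gabrg3 0.36 and Grm4 0.43. Without the 3 arrays high in cortical markers the count was 5, and without the 2 high in choroid plexus markers it was 1.

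**Figure D2:**
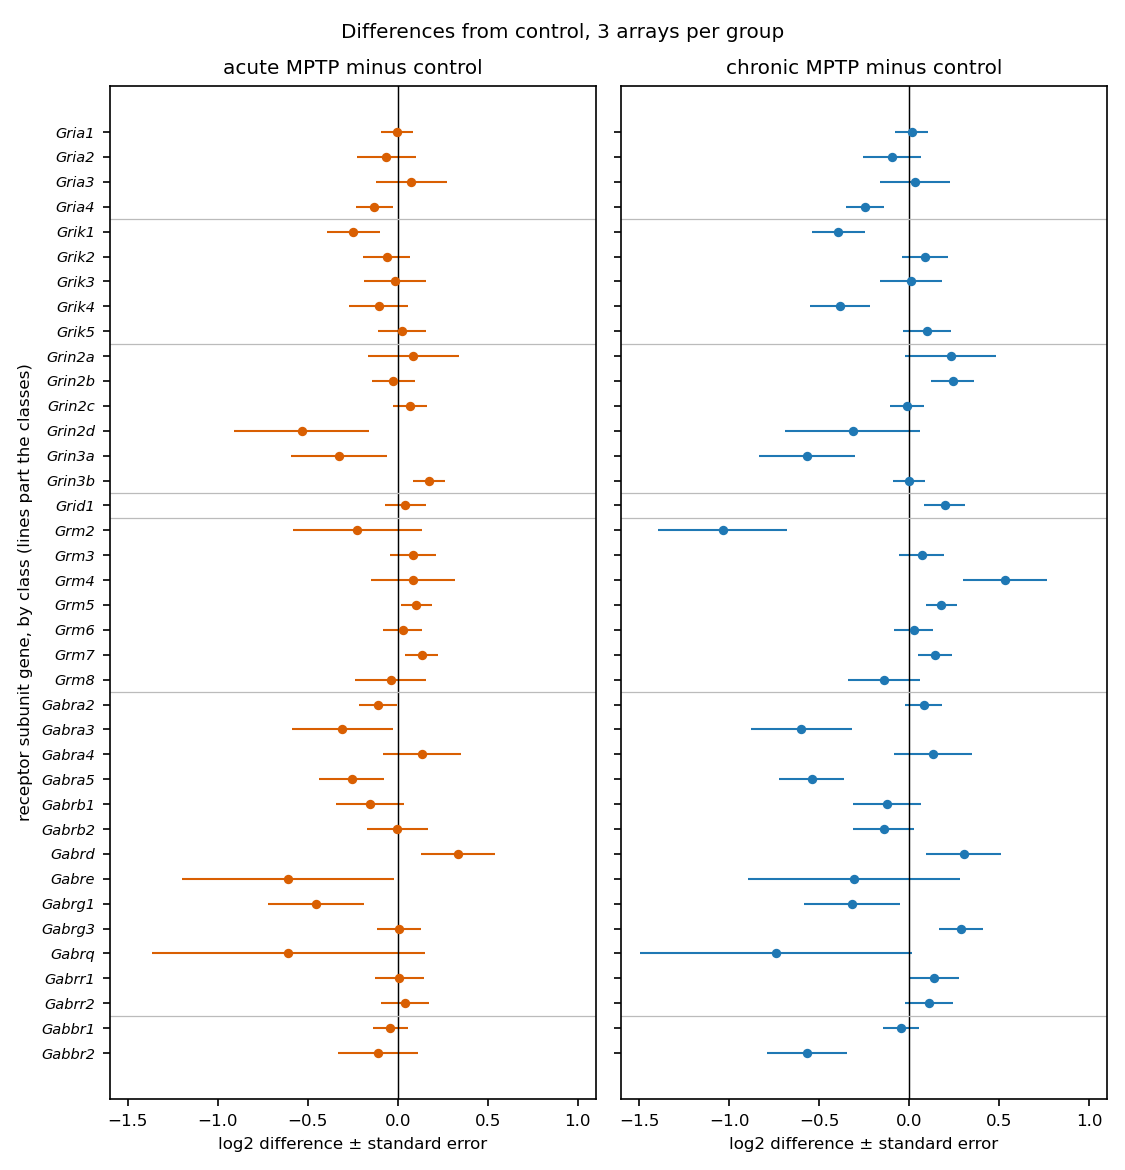
Each point is the difference of a subunit gene from control on the log2 scale, after acute MPTP on the left and after chronic MPTP on the right, with the standard error of the fit over 3 arrays per group; grey lines part the receptor classes. Grm2 lies furthest from 0 after chronic MPTP, at -1.03, and Gabrq and Gabre have the widest errors.

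Between the chronic and the acute group, which received the same total dose, Gabrg3 and Grin2b were higher and Grm2 lower after chronic MPTP, each at an unadjusted p under 0.05. These are 7.89% of the 38 genes, against 5.12% of all tested probe sets (2.36% higher and 2.76% lower). After adjustment 0 passed, with a smallest adjusted p of 0.877, against 0.0122% of all probe sets. Groups did not overlap for Gabra2, higher after chronic MPTP, and for Grm2 (5.26%, against 8.63% of all, 3.61% higher and 5.01% lower). Above the acute group were 18 of the 38 genes, against 46.1% of all probe sets. The count of 3 became 5 with the replicate number as a block (13.9% of all probe sets) and 0 with the tissue covariates (2.17% of all). It was 0 without acute 2, and 1 without control 1, control 3 or acute 1, fits for which the share of all probe sets was not counted. All 14 cortical markers were lower after chronic than after acute MPTP, with a median of -0.81.

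AMPA receptors carry most of the fast excitatory current, and Gria1 had the smallest range of the 38 genes over the arrays. Gria1, which encodes the GluA1 subunit, lay at 11.53, 11.58 and 11.68 under saline, 11.58, 11.53 and 11.65 under acute and 11.48, 11.65 and 11.70 under chronic MPTP. The groups overlapped throughout, and the difference from control was -0.01 ± 0.09 after acute and 0.01 ± 0.09 after chronic MPTP, with 95% intervals of -0.21 to 0.20 and -0.19 to 0.22. Gria2, whose edited subunit keeps the channel closed to calcium, lay at 11.26, 10.74 and 10.77 in the controls, at 11.001, 10.65 and 10.92 after acute and at 10.93, 10.63 and 10.92 after chronic MPTP. Control 1 was highest and chronic 2 lowest, and the intervals were -0.43 to 0.30 after acute and -0.46 to 0.27 after chronic MPTP. Gria3 lay at 11.03, 10.43 and 10.27 under saline, 10.82, 10.59 and 10.54 under acute and 10.59, 10.39 and 10.84 under chronic MPTP, again with control 1 the highest and with the groups overlapping. Gria4 lay at 9.42, 9.31 and 9.27 in the controls, at 9.20, 9.15 and 9.26 after acute and at 9.11, 8.89 and 9.26 after chronic MPTP. The acute and the chronic arrays were all below the lowest control, although acute 3 and chronic 3 came close to it. The difference from control was -0.13 ± 0.10 after acute (adjusted p = 1) and -0.24 ± 0.10 after chronic MPTP (adjusted p = 0.899). The median of the 4 genes was -0.03 after acute and -0.04 after chronic MPTP.

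Kainate receptors tune transmitter release and excitability. Grik1, the GluK1 subunit, lay at 6.79, 6.87 and 7.13 under saline, 6.39, 6.72 and 6.94 under acute and 6.46, 6.63 and 6.52 under chronic MPTP. The chronic arrays were all below the controls and the acute arrays spanned both groups, with differences of -0.39 ± 0.15 for chronic (adjusted p = 0.893) and -0.25 ± 0.15 for acute MPTP against control (adjusted p = 1). Grik4, a high-affinity subunit, lay at 8.90, 8.91 and 8.97 in the controls, at 8.78, 9.12 and 8.56 after acute and at 8.46, 8.85 and 8.32 after chronic MPTP. Its 3 controls were close together, all chronic arrays were below them, and the chronic difference was -0.38 ± 0.17 (adjusted p = 0.899). Grik2, Grik3 and Grik5 overlapped between all groups, with differences between -0.06 and 0.10 from control. The median of the 5 kainate genes was -0.06 after acute and 0.01 after chronic MPTP.

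NMDA receptors need glutamate together with glycine or D-serine and admit calcium, and the GluN2 subunits set their kinetics. Grin2a lay at 10.58, 10.11 and 9.86 under saline, 10.65, 10.42 and 9.74 under acute and 10.49, 10.18 and 10.58 under chronic MPTP. It was lowest on acute 3 and control 3, with group means of 10.18 ± 0.37 (SD, n = 3), 10.27 ± 0.47 and 10.42 ± 0.21 for control, acute and chronic. Grin2b, a subunit abundant in striatal projection neurons, lay at 11.10, 11.25 and 11.09 in the controls, at 11.21, 11.20 and 10.94 after acute and at 11.20, 11.40 and 11.57 after chronic MPTP. Chronic 2 and chronic 3 were above all other arrays and chronic 1 lay among them. Its differences were 0.27 ± 0.12 from acute (adjusted p = 0.877) and 0.24 ± 0.12 from control, and -0.02 for acute against control. Grin2d, a slow subunit found in interneurons and in diencephalon, lay at 7.53, 8.35 and 9.04 under saline, 7.32, 7.82 and 8.18 under acute and 7.59, 8.42 and 7.96 under chronic MPTP. It was highest on control 3, the array highest in thalamic, septal and hypothalamic markers, and lowest on acute 1, the array lowest in them. Its acute difference was -0.53 ± 0.37 (adjusted p = 1), and -0.28 with the covariates; the chronic difference was -0.31. Without control 3 the acute and chronic differences were -0.17 and 0.05, and without control 1 they were -0.92 and -0.70.

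Among the glycine-binding GluN3 subunits, Grin3b lay at 6.32, 6.25 and 6.24 in the controls, at 6.51, 6.54 and 6.28 after acute and at 6.28, 6.28 and 6.25 after chronic MPTP. Acute 1 and acute 2 stood above the other 7 arrays, and these are the acute arrays high in cortical markers. Control 1, the array highest in those markers, was at 6.32. The acute difference of Grin3b was 0.17 ± 0.09 from control (adjusted p = 1), and chronic against acute it was -0.17 ± 0.09 (adjusted p = 0.877). Grin3a reached 10.03 on control 3 and lay between 8.51 and 9.11 elsewhere. Grin2c stayed between 8.01 and 8.27. The only delta receptor gene measured, Grid1, whose product binds cerebellins at synapses, was 0.04 and 0.20 from control after acute and chronic MPTP. The median of the 6 NMDA genes was 0.02 after acute and -0.01 after chronic MPTP.

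Of the metabotropic glutamate receptors, Grm5, an excitatory receptor abundant in striatal projection neurons, lay at 11.92, 12.05 and 11.90 under saline, 12.12, 12.01 and 12.05 under acute and 12.06, 12.11 and 12.24 under chronic MPTP. The chronic arrays were all above the controls, chronic 1 narrowly, and the difference was 0.18 ± 0.09 for chronic (adjusted p = 0.924) and 0.10 for acute MPTP; with the tissue covariates the chronic difference was 0.09. Grm2 lay at 8.36, 7.85 and 9.17 in the controls, at 7.76, 8.53 and 8.41 after acute and at 6.87, 7.66 and 7.75 after chronic MPTP. All chronic arrays were below all control and acute arrays, chronic 1 by the most, and control 3 was the highest. Without control 3 the chronic difference was -0.68, and without control 2 it was -1.34. Against the acute group it was -0.81 ± 0.36 (adjusted p = 0.877), and -0.53 without chronic 1. Grm3, the other receptor of its group, which astrocytes also carry, differed by 0.09 and 0.07 from control.

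Grm4, a presynaptic receptor of the third group, found on striatal and cortical terminals, lay at 8.95, 9.78 and 9.70 under saline, 9.42, 9.66 and 9.61 under acute and 9.61, 10.20 and 10.22 under chronic MPTP. Control 1 was lowest, chronic 2 and chronic 3 were above all other arrays, and chronic 1 was at the level of the acute arrays. The difference was 0.53 ± 0.23 for chronic against control (adjusted p = 0.899) and 0.45 ± 0.23 for chronic against acute (adjusted p = 0.877); without control 1 the former was 0.27. Grm7, of the same group, lay at 9.29, 9.40 and 9.48 in the controls, at 9.63, 9.42 and 9.52 after acute and at 9.47, 9.63 and 9.50 after chronic MPTP. Control 1 and control 2 were the lowest arrays, control 3 lay among the MPTP arrays, and the acute difference was 0.13 ± 0.09 (adjusted p = 1). Grm6, known from retinal bipolar cells, stayed between 5.96 and 6.33, and Grm8 between 7.14 and 7.89. Of the 7 genes 5 were above and 2 below control after acute and likewise after chronic MPTP, with medians of 0.09 and 0.07.

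**Figure D3:**
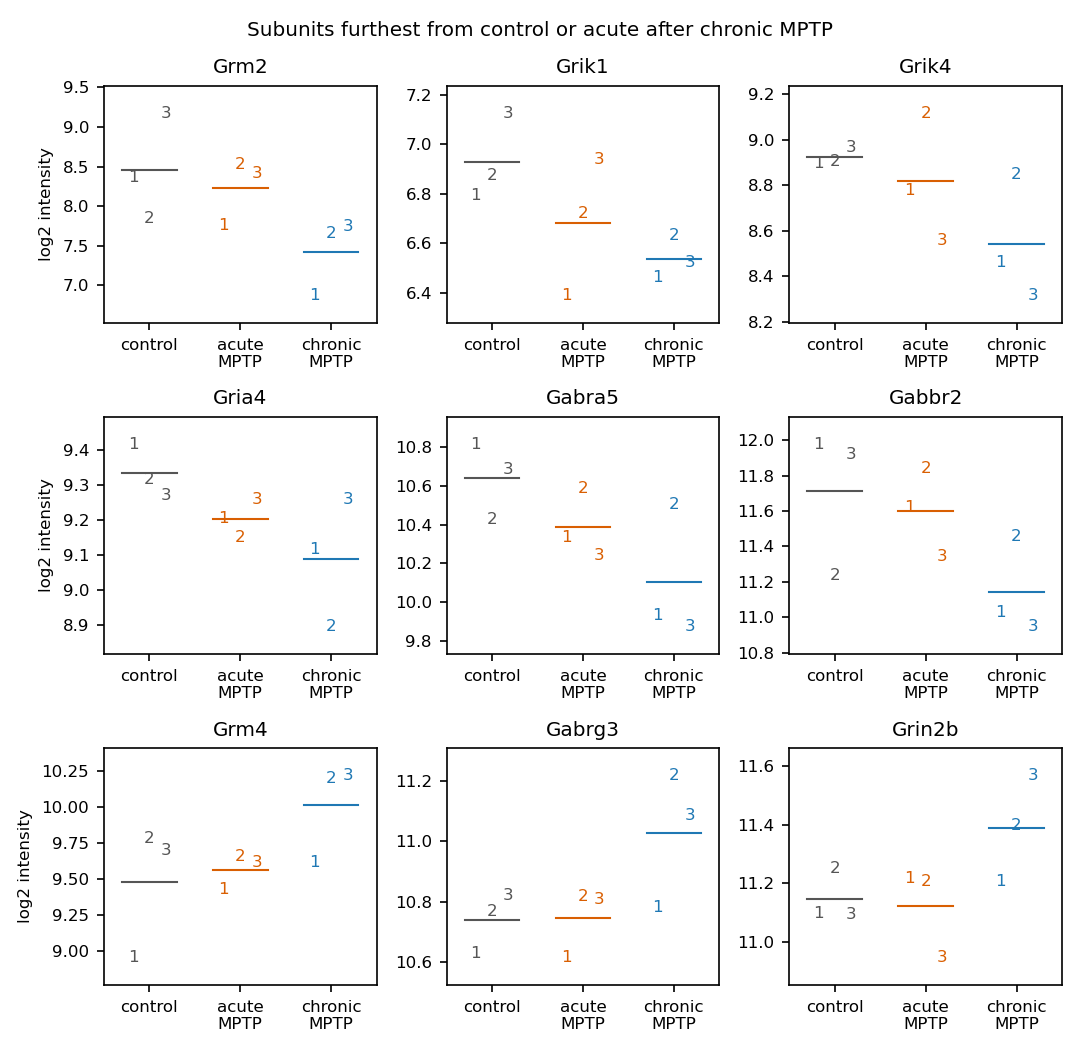
Log2 intensities of 9 subunit genes on each array, which is marked by its number within the group; bars are group means, and each panel has its own scale. The 3 chronic arrays of Grm2, Grik1, Grik4 and Gria4 lie below the 3 controls, while in Grm4, Gabrg3 and Grin2b chronic 2 and chronic 3 lie above all controls and chronic 1 lies among them.

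Among GABA-A receptors, Gabra2 and Gabra4 encode the alpha subunits best known from striatal projection neurons, the latter in receptors outside the synapse together with the delta subunit. Gabra2 lay at 10.94, 10.96 and 11.18 under saline, 10.97, 10.77 and 11.01 under acute and 11.03, 11.10 and 11.20 under chronic MPTP. The chronic arrays were all above the acute arrays, by 0.19 ± 0.10 (adjusted p = 0.877), and overlapped the controls. Gabra4 lay at 11.25, 11.09 and 11.21 in the controls, at 11.46, 11.01 and 11.49 after acute and at 11.40, 10.83 and 11.73 after chronic MPTP. It had both its highest and its lowest value in the chronic group, on chronic 3 and chronic 2. Gabrd, the delta subunit, lay at 9.45, 10.19 and 9.32 under saline, 9.89, 10.18 and 9.89 under acute and 9.84, 9.93 and 10.10 under chronic MPTP. Control 1 and control 3 were low, while control 2 was the highest of all 9 arrays. The differences were 0.33 ± 0.21 after acute (adjusted p = 1) and 0.30 after chronic MPTP, and the latter was -0.09 with the tissue covariates. Without control 2 the acute difference was 0.60, and without control 3 it was 0.17.

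Gabra5, an alpha subunit of receptors outside the synapse that is abundant in hippocampus and deep cortex, lay at 10.82, 10.43 and 10.69 in the controls, at 10.33, 10.59 and 10.24 after acute and at 9.93, 10.50 and 9.87 after chronic MPTP. Chronic 1 and chronic 3 were below all other arrays and chronic 2 lay among them, and the difference from control was -0.54 ± 0.18 (adjusted p = 0.876). Gabrg3, a gamma subunit, lay at 10.63, 10.77 and 10.82 under saline, 10.61, 10.82 and 10.81 under acute and 10.78, 11.22 and 11.08 under chronic MPTP. Chronic 2 and chronic 3 were above all other arrays, with a difference of 0.29 ± 0.12 from control (adjusted p = 0.899) and 0.28 ± 0.12 from acute (adjusted p = 0.877). Gabrg1, another gamma subunit, lay at 8.84, 9.47 and 9.71 in the controls, at 8.58, 8.69 and 9.39 after acute and at 8.996, 9.26 and 8.81 after chronic MPTP. Acute 1, acute 2 and chronic 3 were low together with control 1, and the acute difference was -0.45 ± 0.27 (adjusted p = 1). Gabrb2, a beta subunit, was measured by 3 probe sets; the one used lay between 10.90 and 11.59, and the group means of all 3 were below control after acute and after chronic MPTP, with -0.22 the lowest difference. Gabrb1 lay between 9.80 and 10.61. The rho subunits Gabrr1 and Gabrr2 stayed between 5.82 and 6.30 and between 6.24 and 6.78. Of the 13 GABA-A genes 8 were below control after acute and 7 after chronic MPTP, with medians of -0.11 and -0.12.

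Gabre, Gabra3 and Gabrq, which encode the epsilon, alpha 3 and theta subunits, lie close together on the X chromosome and had wide ranges. These genes were picked after their values were seen. The theta subunit gene Gabrq lay at 6.27, 8.01 and 8.86 under saline, 6.02, 7.11 and 8.18 under acute and 6.20, 8.10 and 6.63 under chronic MPTP. The epsilon subunit gene Gabre lay at 5.62, 7.03 and 7.97 in the controls, at 5.58, 6.28 and 6.94 after acute and at 6.02, 7.37 and 6.32 after chronic MPTP. In both, control 3, chronic 2, control 2 and acute 3 were the 4 highest arrays, and control 1, acute 1 and chronic 1 were the 3 lowest. Gabra3 lay at 11.57, 11.27 and 12.21 under saline, 11.04, 11.47 and 11.61 under acute and 10.60, 11.24 and 11.42 under chronic MPTP. It too was highest on control 3, with chronic 1 and acute 1 the lowest. The acute and chronic differences from control were -0.61 ± 0.76 and -0.74 ± 0.76 for Gabrq, -0.61 ± 0.59 and -0.31 ± 0.59 for Gabre, and -0.31 ± 0.28 and -0.60 ± 0.28 for Gabra3, none of them past the threshold (adjusted p between 0.911 and 1). Without control 3 the chronic difference of Gabre turned to 0.24, and those of Gabrq and Gabra3 shrank to -0.16 and -0.33, while the acute differences were -0.063 for Gabre, -0.033 for Gabrq and -0.043 for Gabra3. Without control 1, by contrast, the acute and chronic differences were -1.33 and -1.46 for Gabrq and -1.23 and -0.93 for Gabre. Control 3 was also the array highest in thalamic, septal and hypothalamic markers, and acute 1 and chronic 1 were the 2 lowest in them. But control 3 was highest in astrocyte markers too (0.41), high in choroid plexus markers (0.84) and lowest in markers of striatal projection neurons (-0.58). With the tissue covariates the chronic differences were -0.58 for Gabrq, -0.12 for Gabre and -0.07 for Gabra3, and the acute ones -0.12, -0.22 and -0.13. What sets these genes high on control 3 was not tested.

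**Figure D4:**
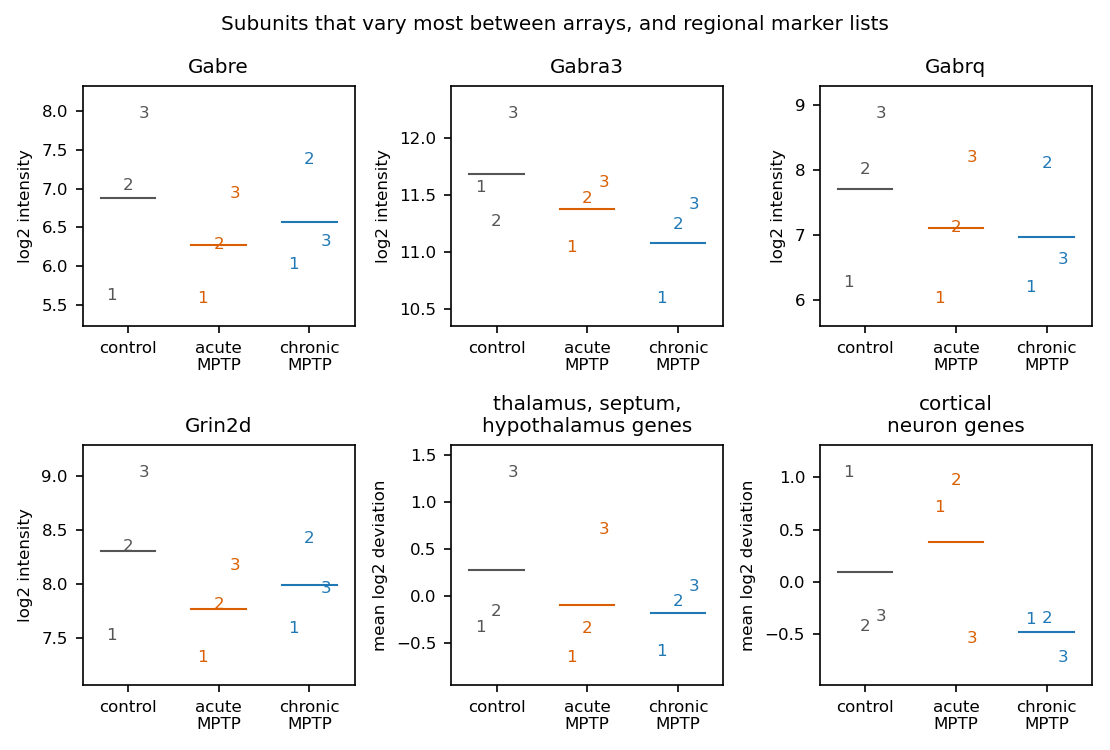
Log2 intensities of Gabre, Gabra3, Gabrq and Grin2d on each array, marked by its number within the group, and the mean deviation of 2 regional marker lists on the same arrays; bars are group means and each panel has its own scale. Control 3 is the highest array in the 4 subunit genes and in the thalamic, septal and hypothalamic list, whereas control 1, acute 1 and acute 2 are the highest in the cortical list. The 4 genes were picked with their values known, so their shared highest array is no test of a link to that list.

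GABA-B receptors need a GABA-binding and a signalling subunit. Gabbr1, the former, lay at 12.47, 12.57 and 12.68 in the controls, at 12.48, 12.58 and 12.53 after acute and at 12.36, 12.62 and 12.60 after chronic MPTP. The groups overlapped, with 95% intervals of the difference from control of -0.26 to 0.18 after acute and -0.27 to 0.18 after chronic MPTP. Gabbr2, the latter, lay at 11.98, 11.24 and 11.92 under saline, 11.62, 11.84 and 11.34 under acute and 11.02, 11.46 and 10.95 under chronic MPTP. Chronic 1 and chronic 3 were below all other arrays, and control 2 and acute 3 were the next lowest. The difference was -0.57 ± 0.22 for chronic against control (adjusted p = 0.898) and -0.46 ± 0.22 for chronic against acute (adjusted p = 0.877). With the tissue covariates these were -0.02 and 0.11, the second with its sign turned. Whether the 2 subunit genes differed in their response was not tested.

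**Figure D5:**
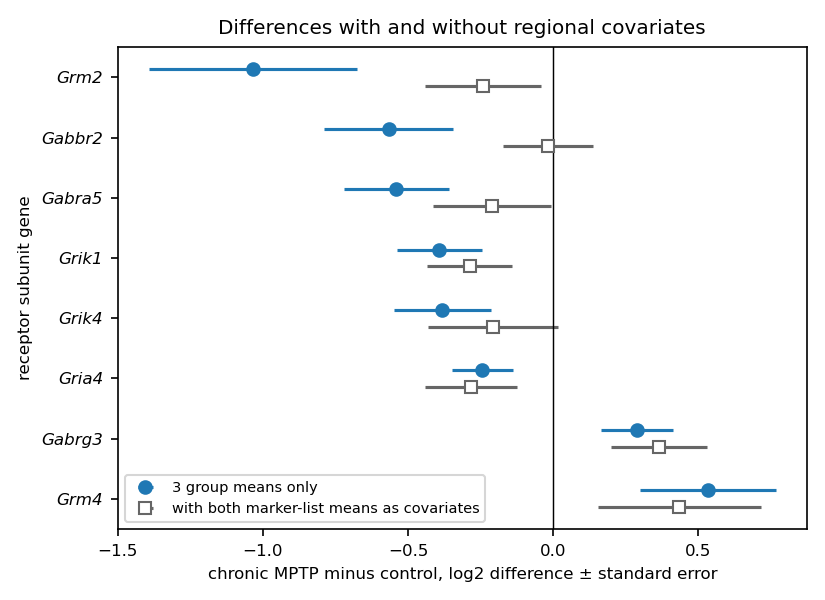
For the 8 subunit genes with an unadjusted p under 0.05 in chronic MPTP against control, the log2 difference with its standard error is shown from the fit of group means (filled circles) and from the fit that also holds the means of the cortical and the thalamic, septal and hypothalamic marker lists (open squares). Grm2, Gabbr2, Gabra5 and Grik4 move towards 0, Gabbr2 from -0.57 to -0.02, while Gabrg3 goes from 0.29 to 0.36 and Grm4 from 0.53 to 0.43.

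Several GABA-A subunit genes are direct neighbours in the genome, by the RefSeq gene table. Gabra5 and Gabrg3 adjoin on chromosome 7 with no protein-coding gene between them, and after chronic MPTP the former lay 1.45-fold below and the latter 1.22-fold above control. Neither difference passed in limma (adjusted p = 0.876 and 0.899), and in both genes the chronic arrays overlapped the controls. With the tissue covariates the log2 differences were -0.21 and 0.36. The neighbours Gabra3 and Gabrq on the X chromosome, and Gabre with 1 gene between it and Gabra3, were all highest on control 3. On chromosome 5, where Gabrg1 adjoins Gabra2 and Gabra4 adjoins Gabrb1, the chronic differences were -0.32, 0.08, 0.13 and -0.12 in that order. Promoters of Gabra5 and Gabrg3 are shown because the genes adjoin and lay on opposite sides of control, and that of Grm2 because its difference was the largest. They are RefSeq sequences of build GRCm38.p6, from 250 bases before to 50 after the start of the gene, all on the minus strand and written from 5′ to 3′: Gabra5 at chr7:57510010-57510309, Gabrg3 at chr7:57387166-57387465 and Grm2 at chr9:106656060-106656359. Capitals mark matches to 7 motifs searched on both strands.
Gabra5: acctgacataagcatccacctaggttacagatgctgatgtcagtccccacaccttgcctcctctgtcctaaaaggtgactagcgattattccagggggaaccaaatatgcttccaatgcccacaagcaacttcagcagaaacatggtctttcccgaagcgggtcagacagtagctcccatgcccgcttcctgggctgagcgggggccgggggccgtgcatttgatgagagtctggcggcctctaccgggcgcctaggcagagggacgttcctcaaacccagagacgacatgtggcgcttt
Gabrg3: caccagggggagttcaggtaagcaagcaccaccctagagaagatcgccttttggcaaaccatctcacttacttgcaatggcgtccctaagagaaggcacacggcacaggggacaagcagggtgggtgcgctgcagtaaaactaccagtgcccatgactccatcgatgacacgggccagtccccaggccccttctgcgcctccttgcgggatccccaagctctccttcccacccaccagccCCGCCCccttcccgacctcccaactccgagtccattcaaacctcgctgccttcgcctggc
Grm2: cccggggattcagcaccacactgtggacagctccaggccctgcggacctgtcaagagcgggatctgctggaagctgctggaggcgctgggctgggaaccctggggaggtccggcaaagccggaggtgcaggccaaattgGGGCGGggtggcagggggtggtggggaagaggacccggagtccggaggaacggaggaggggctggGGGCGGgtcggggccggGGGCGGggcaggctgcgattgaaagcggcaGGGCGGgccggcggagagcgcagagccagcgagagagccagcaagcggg

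The motifs were GCGTGGGCG of EGR factors, AAAGGTCA of NR4A receptors, TGACTCA of AP-1, TGACGTCA of CREB, the GC box GGGCGG, the TATA box TATAAA and the E-box CACGTG. The only matches in these 3 windows were GC boxes, 4 for Grm2, 1 for Gabrg3 and 0 for Gabra5, and the matches do not overlap. A GC box was held by 18 of 38 promoters of 31 subunit genes (47.4%) and by 35.9% of all 32544 promoters of that length. A TATA box was held by 4 of the 38 (10.5%, against 13.6% of all), and the EGR, NR4A, AP-1, CREB and E-box letters by 0 of them, against 0.618%, 1.52%, 5.19%, 1.80% and 7.17% of all. Subunit genes other than these 31 had no promoter among the sequences used here. The Grm2 window held 22 CG pairs and those of Gabra5 and Gabrg3 13 each, against a median of 11.5 in the 38 subunit promoters and 7 in all promoters. The subunit promoters were also richer in G and C letters, with a median of 59.3% against 53.0% in all, and their share of GC boxes was not corrected for this.

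Among genes of receptor partners, 0 passed at an adjusted p under 0.05 in any of the 3 comparisons. Of 15 auxiliary subunits of AMPA and kainate receptors, 12 were above and 3 below control after chronic MPTP, with a median of 0.33 against -0.01 over all probe sets (46.7% of them above), and 2 higher and 1 lower had an unadjusted p under 0.05, against 2.85% and 2.66% of all. Gsg1l, which dampens AMPA receptor currents, was 0.55 ± 0.20 above control (0.43 with the tissue covariates), and Cnih3, a cornichon that helps their export, differed by -0.83 ± 0.33 (-0.19 with the covariates). After acute MPTP 13 of the 15 were above control, by a median of 0.11, against 51.5% of all probe sets. Of 23 excitatory scaffold and kinase genes, 11 were above and 12 below control after chronic MPTP, with 2 higher and 1 lower at an unadjusted p under 0.05, against the same shares of all. Cbln2, a cerebellin that links delta receptors to neurexins, differed by -1.23 ± 0.33 (adjusted p = 0.876) and by -0.39 with the covariates. Dlgap3, a scaffold abundant in striatum, differed by 0.63 ± 0.25 (adjusted p = 0.899). Of 17 partners of GABA receptors, 15 were above control after chronic MPTP, against 46.7% of all probe sets, with a median of 0.07 over the list, and 0 of them had an unadjusted p under 0.05.

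The precision of these comparisons was set by 3 arrays per group. The 95% interval of a subunit gene's difference reached a median of 0.37 to either side on the log2 scale, a 1.29-fold change, from 0.19 for Grm5 to 1.71 for Gabrq.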

How the data were processed

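RNA of mouse striatum was measured on 9 Affymetrix gene arrays, 3 for each of acute MPTP, chronic MPTP and saline. The authors deposited log2 intensities per probe set; how background was corrected and arrays were normalized was not given in the sources used here, and no further scaling was applied. Of 28815 probe sets, 21780 had 1 gene symbol in the platform annotation, 1605 several and 5430 none, and 21689 matched the RefSeq gene table, with 0 symbols changed. Those with 1 symbol and a mean at or above the 25th percentile (log2 5.89), 16335 in all, were fitted with limma 3.58.1 in R 4.3.3 (lmFit and eBayes, a mean per group, 6 residual degrees of freedom, or 4 with a block or covariates), and p-values of each of 3 comparisons were adjusted over all of them by the Benjamini-Hochberg method. Errors are standard errors of that fit unless given as SD, and the code was tested on simulated data.

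Genes were named by a rule: a set of principal subunits, of which 11 of 13 had a probe set, and in each comparison the 3 higher and the 3 lower subunit genes with the smallest p. Gria4, Grik4, Gabra3, Gabre and Gabrq were added after their values were seen. So were the differences of Gabbr2 and Gria1 from control and the chronic difference of Grin2d. Some other printed differences, such as that of Gabra2 between chronic and acute MPTP, also fall outside the rule. The members, gene lists and marker lists were chosen with earlier results of these data known.

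Arrays with the same number in their titles correlated in their deviations from the group means at 0.157 to 0.673 in all 9 pairs, against -0.609 to 0.184 in the other 18; the pairing comes from the values, and the labels do not say what the number stands for. A fit with the number as a block, the means of 2 regional marker lists as covariates, other filters and scalings, and leaving out arrays were the alternatives. No 2 arrays shared more than 6.34% of their values.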

Additional observations from a re-analysis of the deposited data

How the results depend on the processing

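No subunit gene passed at an adjusted p under 0.05 under any of the 19 alternatives, 9 of which leave out 1 array; over 581 values of 31 differences, 563 kept their direction, 18 turned, and the adjusted p ran from 0.234 to 1. The count at an unadjusted p under 0.05 moved. The share of all probe sets beside it was counted only for the main, block and covariate fits. For acute MPTP against control (0) it was 2 with the replicate number as a block, 1 without the 2 arrays high in choroid plexus markers, and 0 to 3 leaving out 1 array. For chronic MPTP against control (8) it was 11 with the block, 5 with a filter at the 50th percentile, with the 2 groups alone, with an intensity trend and without the 3 arrays high in cortical markers, 1 without the 2 choroid-high arrays, 0 with the tissue covariates, and 2 to 8 leaving out 1 array. For chronic against acute MPTP (3) it was 5 with the block, 1 with the 50th percentile filter and with the trend, 0 with the covariates, and 0 to 4 leaving out 1 array. The block changed no call after adjustment. The differences that turned sign under an alternative were those of Gria1, Gabbr2, Grin2d and Gabre. Gria1 after acute MPTP was 0.0129 after quantile scaling, 0.0315 with covariates, 0.0241 without the cortex-high and 0.0037 without the choroid-high arrays, and -0.04 to 0.0358 leaving out 1 array; after chronic MPTP it was -0.0207 without the cortex-high arrays, and -0.0312 to 0.0790 leaving out 1 array. Gabbr2 after acute MPTP was 0.12 without the choroid-high arrays, and -0.35 to 0.0225 leaving out 1 array; between chronic and acute MPTP it was 0.11 with covariates. After chronic MPTP and without the choroid-high arrays, Grin2d was 0.0515 (-0.70 to 0.0515 leaving out 1 array) and Gabre 0.24 (-0.93 to 0.24). The cause of these changes was not tested. Arrays at 3 per group limit precision.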

Other observations

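Markers of other cell types of the tissue were measured as well. Of 10 tested interneuron markers, 7 were above control after chronic MPTP, with a median of 0.23, and 6 after acute MPTP, with a median of 0.14. Of all tested probe sets, 46.7% and 51.5% were above control. The 3 markers below control after chronic MPTP were Pvalb, Sst and Npy. Of 8 astrocyte markers, 2 were above and 6 below control after chronic MPTP, with a median of -0.11, and 5 above and 3 below after acute MPTP, with a median of 0.03, beside the same shares of all. None passed at an adjusted p under 0.05 in limma.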
